A study of Mus musculus with 12 samples.

Results

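The cytochrome P450 genes of the mouse encode haem enzymes that insert an oxygen atom into drugs, steroids, sterols, vitamins and fatty acids. All rows of the expression table whose gene symbol starts with Cyp and a digit were taken, without Cyp51 and without names that end in -ps. The rule left 87 genes of the 30268 in the table, and 32 of them reached 1 FPKM (fragments counted per length of transcript and per depth of library) in at least 3 of the 12 libraries and were tested. Messenger RNA was sequenced from the gonadal white adipose tissue of male C57BL/6 mice, which were wild type (WT) or lacked miR-10a (KO). Feeding began at 8 weeks of age and lasted 16 weeks, either with normal chow (NCD) or with a high-fat diet (HFD), and each of the 4 groups, WT_NCD, KO_NCD, WT_HFD and KO_HFD, has 3 biological replicates. The KO animals lack a microRNA, and the sources used here do not say in which cells or by which allele. The table measures messenger RNA, so it does not check the loss of the mature microRNA. Libraries carry the numbers of the table's columns, as in WT_NCD 1.

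Most P450 enzymes of drug and steroid metabolism sit in the endoplasmic reticulum and take their electrons from P450 oxidoreductase (Por). A smaller group sits in mitochondria and takes them from ferredoxin. The liver is the best known site of the family, but fat holds members of its own, among them Cyp2e1, which oxidises ethanol, acetone and fatty acids, and Cyp1b1, which oxidises oestrogens, retinol and arachidonic acid. Other branches make epoxides from arachidonic acid (Cyp2c and Cyp2j) or hydroxylate the far end of fatty acids and leukotrienes (Cyp4).

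The FPKM of all genes summed to between 383633 and 455434 per library, and 12859 to 13667 genes reached 1 FPKM. The number of reads behind these values is unknown. Markers of the tissue were present in every library. The summed level of 8 adipocyte markers was 24626 to 34632 FPKM in the NCD libraries, 12498 to 15802 in WT_HFD and 6924 to 12163 in KO_HFD, and the summed level of 8 macrophage markers was 274 to 460, 1696 to 2436 and 2582 to 3806 FPKM in the same order. Transcripts of 7 hepatocyte markers were also found. Their sum was 137 to 1058 FPKM in WT_NCD, 42.4 to 477 in KO_NCD, 1.80 to 203 in WT_HFD and 9.37 to 32.8 in KO_HFD, with WT_NCD 2 and KO_NCD 3 the highest. Apoa1, Fgb and Ttr were listed at 0 in WT_HFD 1, and Tat in KO_HFD 3. Ciliated-cell transcripts were highest in KO_NCD 2, WT_NCD 2 and WT_NCD 4, at 77.0 to 112 FPKM for the sum of 10 markers. Epididymal markers summed to 2.87 FPKM or less and Leydig cell markers to 2.38 FPKM or less.

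Cyp2e1 dominated the family on chow. It made up 85.1% to 91.5% of the summed FPKM of the 87 genes in the 6 NCD libraries, 18.8% to 37.1% in WT_HFD and 5.18% to 10.3% in KO_HFD. Its rank among all genes was 15 to 32 in the NCD libraries, 546 to 1488 in WT_HFD and 3024 to 6097 in KO_HFD. The other 86 genes together held 210 to 364 FPKM on NCD, 179 to 203 in WT_HFD and 172 to 192 in KO_HFD. Next to Cyp2e1, Cyp4v3 and Cyp4b1 had the highest mean level, at 33.8 and 29.7 FPKM over the 12 libraries. Of the 87 genes, 14 reached 1 FPKM in every library.

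**Figure D1:**
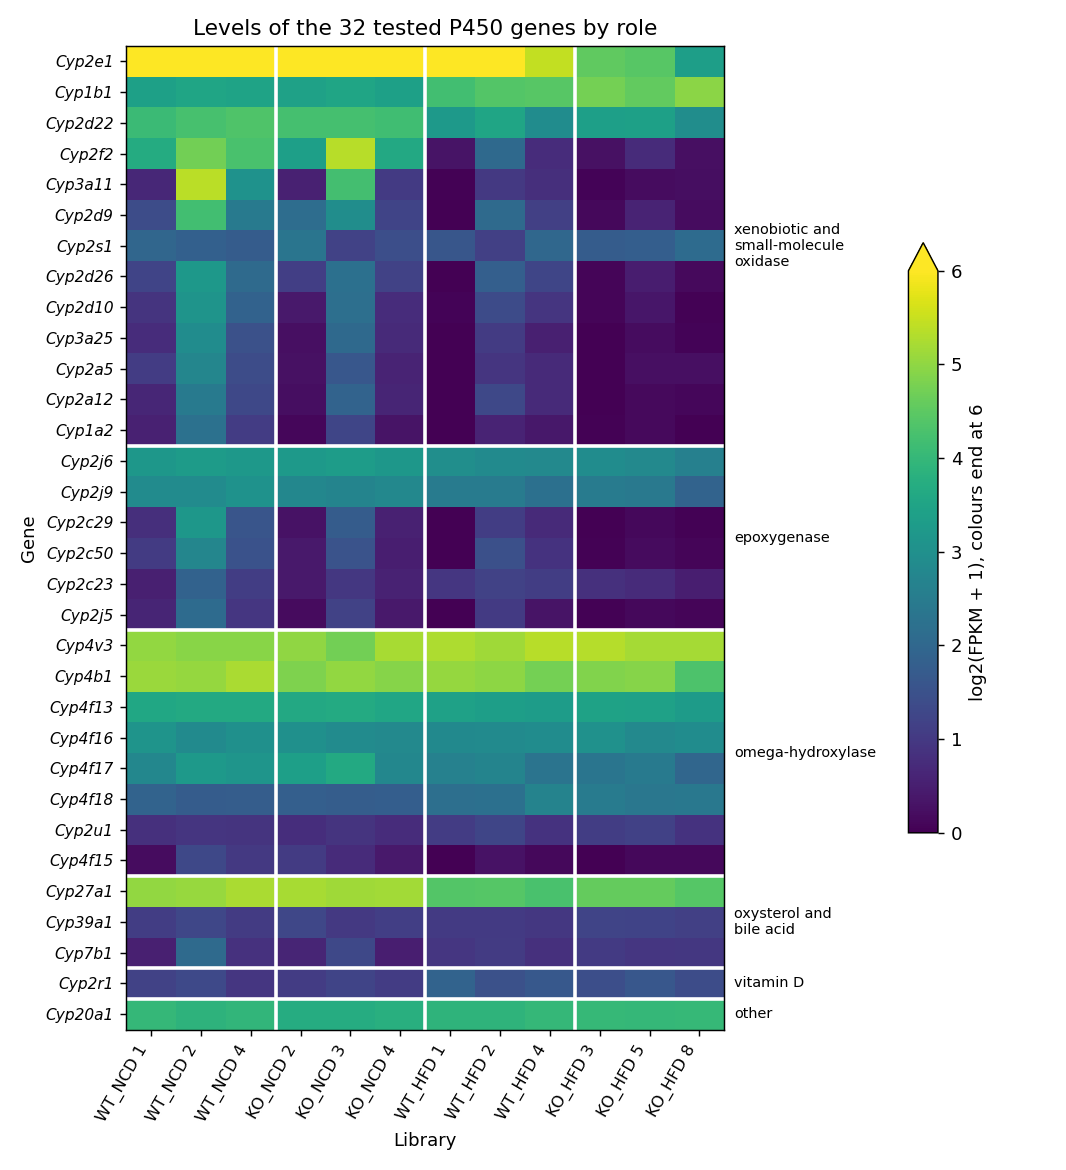
Level of the 32 tested P450 genes (rows, grouped by role) in the 12 libraries (columns), as log2(FPKM + 1). Cyp2e1 is off the end of the colour scale in all 6 NCD libraries and 2 WT_HFD libraries, and a block of xenobiotic and epoxygenase genes is brightest in WT_NCD 2 and KO_NCD 3.

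On HFD, Cyp2e1 fell in both genotypes. The gene lies on the plus strand of chromosome 7 (GRCm38, chr7:140763819-140774990). Its level was 1420, 2080 and 1991 FPKM in WT_NCD and 1244, 3114 and 1244 FPKM in KO_NCD. On HFD it was 105, 106 and 42.7 FPKM in WT and 22.0, 20.6 and 9.37 FPKM in KO. Every HFD library was below every NCD library, and all 3 KO_HFD libraries were below the lowest WT_HFD library. The mean fell from 1830 ± 358 (SD, n = 3) to 84.6 ± 36.2 FPKM in WT, a ratio of 21.6, and from 1867 ± 1079 to 17.3 ± 6.92 FPKM in KO, a ratio of 108. In a limma model of log2(FPKM + 1) the diet difference was -4.51 (SE 0.46, 95% interval -5.52 to -3.51, adjusted p = 2.08e-05) in WT and -6.61 (SE 0.46, -7.62 to -5.61, adjusted p = 7.71e-07) in KO. Counted from the most negative of 14340 tested genes, Cyp2e1 was in place 2 in WT and place 1 in KO. In bulk tissue, fewer cells of a type and less RNA per cell cannot be told apart. Of the 8 adipocyte markers, 5 fell and 1 rose in WT and 7 fell and 1 rose in KO, and their part in the result was not tested. The one that rose was leptin (Lep), from 279 ± 93.4 to 1003 ± 160 FPKM in WT and from 274 ± 99.0 to 773 ± 226 FPKM in KO. Adipsin (Cfd) fell about as far as Cyp2e1 in WT, from 6816 ± 580 to 309 ± 138 FPKM. Set against each of the 8 markers in the same library, Cyp2e1 was lower in every WT_HFD library than in every WT_NCD library for 7 of them, with Cfd the exception, and lower in every KO_HFD library than in every KO_NCD library for all 8. Per 100 FPKM of Cfd it stood at 26.7 ± 3.99 FPKM in WT_NCD and 27.7 ± 7.60 in WT_HFD, and at 23.7 ± 3.87 in KO_NCD and 14.2 ± 5.06 in KO_HFD. Per 100 FPKM of adiponectin (Adipoq) it stood at 89.9 ± 24.5 FPKM in WT_NCD and 8.31 ± 2.73 in WT_HFD, and at 81.6 ± 36.8 in KO_NCD and 2.83 ± 0.48 in KO_HFD.

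**Figure D2:**
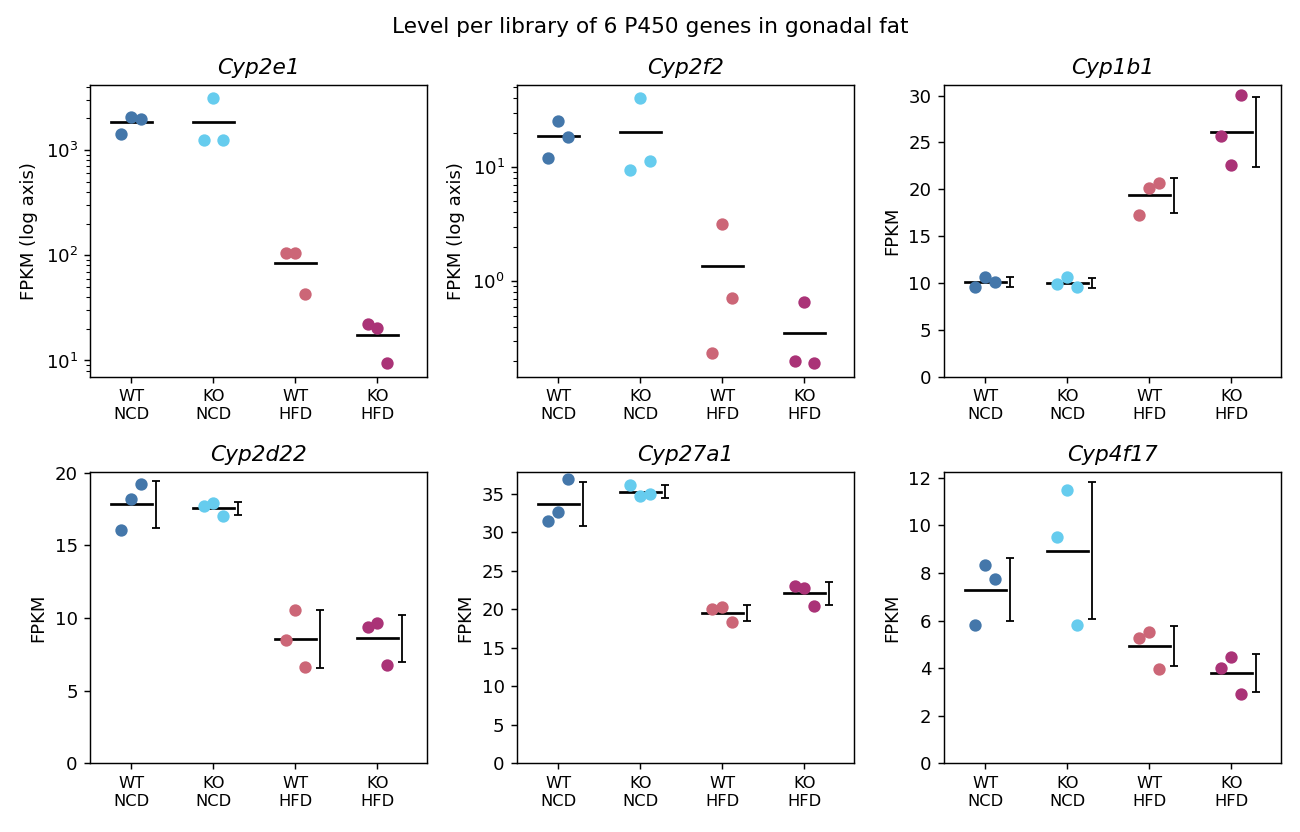
FPKM of 6 P450 genes in each library (points), with the group mean (line) and, on the linear panels, the SD (bar, n = 3). Cyp2e1 and Cyp2f2 are on log axes. Cyp2e1 drops from 1244 FPKM or more in every NCD library to between 9.37 and 106 FPKM on HFD, whereas Cyp1b1 is at 17.2 FPKM or more in every HFD library.

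The promoters of the 2 xenobiotic oxidases with the largest falls, Cyp2e1 and Cyp2f2, and of the one that rose, Cyp1b1, are printed because these genes share a role and moved in opposite directions. Each is given 5′ to 3′ on the gene's strand from 250 bases before to 50 after the RefSeq start (GRCm38.p6), with motif matches in capitals. They lie at chr7:140763569-140763868 (plus strand), chr7:27119705-27120004 (plus strand) and chr17:79715012-79715311 (minus strand).
Cyp2e1: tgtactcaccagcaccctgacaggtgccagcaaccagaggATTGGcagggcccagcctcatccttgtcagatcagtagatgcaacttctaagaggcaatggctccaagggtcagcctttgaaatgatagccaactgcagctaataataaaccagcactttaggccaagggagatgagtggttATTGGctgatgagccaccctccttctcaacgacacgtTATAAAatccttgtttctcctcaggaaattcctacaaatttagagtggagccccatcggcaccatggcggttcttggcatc
Cyp2f2: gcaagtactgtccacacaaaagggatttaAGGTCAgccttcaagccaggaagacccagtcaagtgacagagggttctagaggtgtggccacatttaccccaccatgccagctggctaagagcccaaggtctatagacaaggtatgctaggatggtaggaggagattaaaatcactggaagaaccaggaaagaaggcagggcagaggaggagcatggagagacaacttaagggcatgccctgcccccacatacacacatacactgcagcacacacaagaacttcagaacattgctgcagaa
Cyp1b1: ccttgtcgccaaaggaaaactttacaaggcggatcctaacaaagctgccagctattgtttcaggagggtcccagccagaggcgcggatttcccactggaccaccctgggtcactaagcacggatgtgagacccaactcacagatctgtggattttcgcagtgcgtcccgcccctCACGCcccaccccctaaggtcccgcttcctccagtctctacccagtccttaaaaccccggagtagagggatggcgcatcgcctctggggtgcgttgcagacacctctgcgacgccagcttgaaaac
The capitals in Cyp2e1 are a TATA box (TATAAA on the gene's strand) at -31 and 2 inverted CCAAT boxes (ATTGG) at -210 and -68. Those in Cyp2f2 are a nuclear receptor half-site (AGGTCA) at -221. The capitals in Cyp1b1 mark the core of the Ah receptor response element (GCGTG, here on the other strand as CACGC) at -76. Among the 26 tested P450 genes with a promoter in the RefSeq table, 6 held TATAAA (23.1%, against 8.88% of all 27025 promoters and 4.58% of those of tested genes), namely Cyp1a2, Cyp2a12, Cyp2a5, Cyp2c29, Cyp2e1 and Cyp3a11. GCGTG on either strand was in 6 (23.1%, against 32.5% of all promoters and 49.9% of those of tested genes). AGGTCA on either strand was in 6 (23.1%, against 16.0% and 12.5%), CCAAT on either strand in 15 (57.7%, against 37.9% and 38.8%), and the HNF1 half-site GTTAAT in 2 (7.69%, against 7.20% and 4.31%). A match is a description of the letters and not a binding site.

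Cyp2f2, known as the naphthalene oxidase of mouse lung club cells, followed Cyp2e1. Its level was 12.0, 25.3 and 18.5 FPKM in WT_NCD and 9.51, 40.2 and 11.4 FPKM in KO_NCD. It was 0.24, 3.16 and 0.71 FPKM in WT_HFD and 0.20, 0.66 and 0.19 FPKM in KO_HFD. No HFD library reached the lowest NCD library, and KO_NCD 3 was the highest for both genes. Cyp2f2 reached 1 FPKM in 6 NCD libraries but 1 HFD library, so it passed the filter through the diet on which it was high. The log2(FPKM + 1) difference was -3.19 (SE 0.54, adjusted p = 0.000676) in WT and -3.71 (SE 0.54, adjusted p = 0.000151) in KO.

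Cyp1b1 moved the other way. It stood at 9.61, 10.6 and 10.1 FPKM in WT_NCD and at 9.87, 10.6 and 9.57 FPKM in KO_NCD. It stood at 17.2, 20.1 and 20.7 FPKM in WT_HFD and at 25.7, 22.6 and 30.1 FPKM in KO_HFD. The NCD groups overlapped, and the 3 KO_HFD libraries lay above the 3 WT_HFD libraries, which lay above all NCD libraries. The rise was 0.87 (SE 0.10, adjusted p = 5.31e-05) in WT and 1.29 (SE 0.10, adjusted p = 1.79e-06) in KO on the log2(FPKM + 1) scale. The macrophage markers rose in the same libraries, 8 of 8 in each genotype, and their part in the rise of Cyp1b1 was not tested. The Ah receptor gene itself (Ahr) stood at 2.57 ± 0.40 FPKM in WT_NCD and 2.40 ± 0.65 in WT_HFD and did not pass the test in either genotype (adjusted p = 0.619 in WT and 0.815 in KO by limma).

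Among the other xenobiotic oxidases, Cyp2d22 fell from 17.8 ± 1.60 to 8.56 ± 1.98 FPKM in WT and from 17.6 ± 0.47 to 8.61 ± 1.62 FPKM in KO, a log2(FPKM + 1) difference of -1.0 (adjusted p = 0.000362) and -0.96 (adjusted p = 0.00029). Per 100 FPKM of Adipoq, 1 of the 8 adipocyte markers, its level was 0.87 ± 0.15 in WT_NCD and 0.86 ± 0.08 in WT_HFD, and 0.80 ± 0.09 in KO_NCD and 1.49 ± 0.28 in KO_HFD. Per 100 FPKM of the marker Plin1, Cyp2d22 stood at 2.64 ± 0.48 in WT_NCD and 2.43 ± 0.15 in WT_HFD, and at 2.64 ± 0.20 in KO_NCD and 3.49 ± 0.48 in KO_HFD. Relative to the markers Fabp4 and Cidec, Cyp2d22 was lower on HFD in WT but not in KO. Relative to Lep, which rose on HFD, Cyp2d22 was lower in both genotypes. The reading thus depends on the marker chosen. Cyp2d9, a testosterone hydroxylase of male mouse liver, stood at 1.65, 17.3 and 4.47 FPKM in WT_NCD and at 3.42, 6.62 and 1.35 FPKM in KO_NCD. It was listed at 0, 3.23 and 1.20 FPKM in WT_HFD and 0.09, 0.51 and 0.16 FPKM in KO_HFD. The WT groups overlapped and the KO groups did not, and the fall passed the test in KO (-1.79, SE 0.70, adjusted p = 0.0448) but not in WT. Cyp2a5, a coumarin hydroxylase, stood at 1.08, 5.74 and 1.65 FPKM in WT_NCD, 0.20, 2.1 and 0.52 in KO_NCD, 0 (as listed), 0.89 and 0.64 in WT_HFD, and 0 (as listed), 0.19 and 0.19 in KO_HFD. Its diet difference in WT was -1.20 (SE 0.45, adjusted p = 0.0459 by limma), and it did not pass in KO. All 4 libraries in which Cyp2a5 reached 1 FPKM were NCD libraries, so it was tested only through the diet on which it was high, and with no filter the adjusted p was 0.0964. The call of Cyp2d9 was lost without any one of WT_NCD 4, KO_NCD 2, KO_NCD 3, WT_HFD 4 or the KO_HFD libraries. That of Cyp2a5 was kept only without WT_NCD 1, KO_NCD 2, KO_NCD 3 or WT_HFD 2. Cyp2d9 reached 1 FPKM in 6 NCD libraries but 2 HFD libraries, so it too passed the filter through NCD. The call of Cyp2d9 was also lost with no filter (adjusted p = 0.0976). Cyp2d9 and Cyp2a5 were highest in WT_NCD 2, the library with the most hepatocyte transcripts. That the calls differ between genotypes is not evidence of a difference, since the difference of diet effects passed the test for neither gene. Cyp2s1, an epithelial member, ranged from 1.18 to 4.02 FPKM and passed no test. Levels within the Cyp2c, Cyp2d, Cyp2j, Cyp3a and Cyp4f clusters are uncertain, because reads may be split between near-identical copies.

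**Figure D3:**
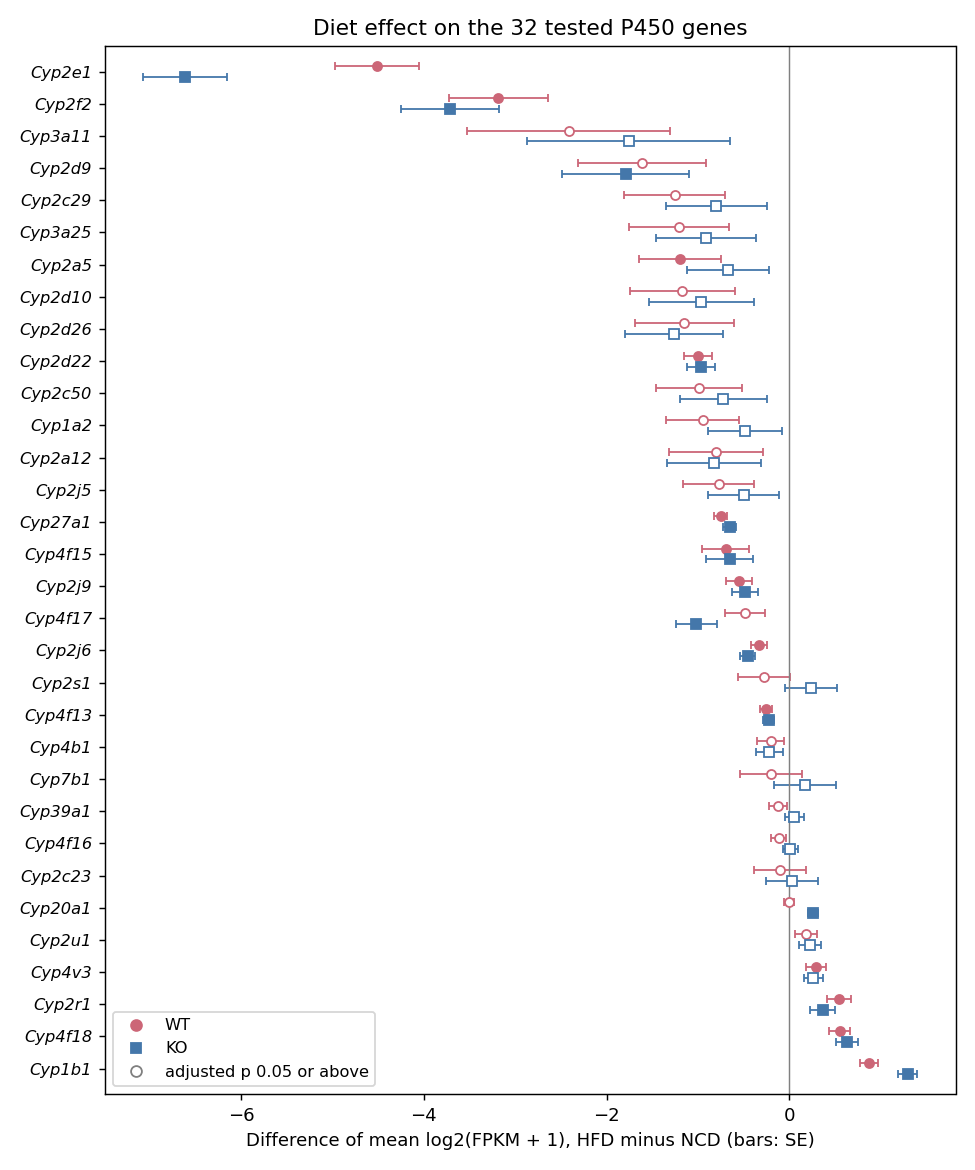
Difference of mean log2(FPKM + 1) between HFD and NCD (points, with SE bars) for the 32 tested P450 genes in WT (circles) and KO (squares). Filled symbols passed adjusted p 0.05. Cyp2e1 and Cyp2f2 are far to the left in both genotypes and Cyp1b1 is the farthest to the right.

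Of the arachidonic acid epoxygenases, 6 of 22 were tested and 2 fell in each genotype, which is 33.3% where 50.8% of all tested genes passed for diet in WT and 60.9% in KO. Cyp2j6 fell from 8.29 ± 0.39 to 6.37 ± 0.40 FPKM in WT (adjusted p = 0.008) and from 8.48 ± 0.50 to 5.93 ± 0.77 FPKM in KO (adjusted p = 0.000865). Cyp2j9 fell from 6.76 ± 0.48 to 4.31 ± 0.56 FPKM in WT and from 5.76 ± 0.24 to 3.92 ± 1.03 FPKM in KO (limma adjusted p = 0.00794 and 0.0123). Both were present at 2.73 FPKM or more in every library. The other epoxygenases, Cyp2c29, Cyp2c50, Cyp2c23 and Cyp2j5, were each highest in WT_NCD 2, at 2.72 to 8.09 FPKM, and none passed. Soluble epoxide hydrolase (Ephx2), which opens the epoxides these enzymes make, fell in KO from 124 ± 21.7 to 63.0 ± 9.45 FPKM (adjusted p = 0.000452 by limma). In WT it stood at 126 ± 15.7 on NCD and 96.9 ± 16.6 FPKM on HFD and did not pass (adjusted p = 0.0722 by limma).

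Of the 18 fatty acid omega-hydroxylases, 8 were tested, and 4 passed in each genotype, 50% of them, against 50.8% of all tested genes in WT and 60.9% in KO. Cyp4v3, the counterpart of the human retinal dystrophy gene CYP4V2, stood at 31.5, 29.5 and 29.7 FPKM in WT_NCD and at 31.1, 25.5 and 36.05 FPKM in KO_NCD. It stood at 37.6, 34.4 and 39.7 FPKM in WT_HFD and at 39.3, 35.6 and 35.8 FPKM in KO_HFD. All WT_HFD libraries were above all WT_NCD libraries, a rise of 0.29 (SE 0.11, adjusted p = 0.0434 by limma), while the KO groups overlapped. This call was kept only when KO_NCD 3, KO_NCD 4 or WT_HFD 2 was the library left out. Cyp4b1, a hydroxylase of fatty acids and xenobiotics, stood at 33.4, 32.1 and 37.0 FPKM in WT_NCD and at 27.5, 31.8 and 28.9 FPKM in KO_NCD. It stood at 32.2, 30.4 and 26.0 FPKM in WT_HFD and at 28.3, 29.3 and 18.9 FPKM in KO_HFD. The diet groups of Cyp4b1 overlapped in both genotypes and no test passed.

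Cyp4f17 stood at 5.81, 8.36 and 7.74 FPKM in WT_NCD, 9.51, 11.5 and 5.82 in KO_NCD, 5.26, 5.54 and 3.96 in WT_HFD, and 4.02, 4.46 and 2.94 in KO_HFD. The HFD libraries lay below the NCD libraries of their genotype, and the fall passed in KO (-1.02, SE 0.22, adjusted p = 0.0021) but not in WT. Cyp4f13 fell from 11.4 ± 0.39 to 9.37 ± 0.47 FPKM in WT and from 11.3 ± 0.52 to 9.48 ± 0.65 FPKM in KO. Cyp4f15 stood at 0.88 ± 0.68 FPKM on NCD and 0.10 ± 0.11 on HFD in WT, and at 0.69 ± 0.37 and 0.06 ± 0.05 FPKM in KO. Both differences passed, but the 3 libraries in which it reached 1 FPKM were all on NCD, so it was tested only through the diet on which it was high. With no filter neither passed (adjusted p = 0.0745 in WT and 0.081 in KO by limma). The calls of Cyp4f15 were lost in 9 of the 12 fits that left out 1 library, and kept in WT only without WT_NCD 1, KO_NCD 2 or KO_NCD 4 and in KO only without WT_NCD 1, WT_NCD 2 or KO_NCD 4. Cyp4f18, which hydroxylates leukotrienes in mouse neutrophils, rose from 2.51 ± 0.22 to 4.20 ± 1.04 FPKM in WT (adjusted p = 0.00281 by limma) and from 2.47 ± 0.05 to 4.38 ± 0.20 FPKM in KO (adjusted p = 0.000817 by limma). Its rise went with that of the macrophage markers, whose part was not tested. Cyp4f16 at 6.12 to 7.67 FPKM and Cyp2u1 at 0.69 to 1.4 FPKM passed no test.

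Cyp27a1, the mitochondrial sterol hydroxylase of the acidic bile acid pathway, fell from 33.7 ± 2.85 to 19.5 ± 1.02 FPKM in WT and from 35.3 ± 0.79 to 22.1 ± 1.46 FPKM in KO. All 6 HFD libraries lay below all 6 NCD libraries (-0.75, adjusted p = 1.56e-05 in WT, and -0.65, adjusted p = 2.22e-05 in KO). Relative to Adipoq, 1 of the 8 adipocyte markers, it was not lower. Per 100 FPKM of Adipoq it stood at 1.64 ± 0.24 in WT_NCD and 2.0 ± 0.21 in WT_HFD, and at 1.61 ± 0.23 in KO_NCD and 3.96 ± 1.31 in KO_HFD. Relative to the markers Fabp4 and Cidec, Cyp27a1 was lower on HFD in WT but not in KO. Relative to Lep, which rose on HFD, Cyp27a1 was lower in both genotypes. The reading thus depends on the marker chosen. Its ratios to the other adipocyte markers are not given here. The other tested oxysterol enzymes, Cyp39a1 and Cyp7b1, had group means of 0.81 to 1.48 FPKM and passed no test. Cyp2r1, which makes the circulating form of vitamin D, rose from 1.23 ± 0.29 to 2.24 ± 0.50 FPKM in WT (adjusted p = 0.0065) and from 1.18 ± 0.14 to 1.80 ± 0.23 FPKM in KO (adjusted p = 0.036 by limma, lost without KO_NCD 2, KO_NCD 4, KO_HFD 3 or KO_HFD 5). Cyp20a1, a member with no known substrate, stood at 14.3 ± 0.60 FPKM in WT_NCD and 14.3 ± 0.61 in WT_HFD and rose in KO from 12.4 ± 0.33 to 15.03 ± 0.12 FPKM (0.26, SE 0.05, adjusted p = 0.00151 by limma), a call lost under quantile normalization and median centring.

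In all, 13 of the 32 tested P450 genes passed adjusted p 0.05 for diet in WT (4 higher, 9 lower) and 14 in KO (4 higher, 10 lower). These are 40.6% and 43.8% of them, where 50.8% of all 14340 tested genes passed in WT (25.4% higher, 25.3% lower) and 60.9% in KO (34.6% higher, 26.2% lower). Without WT_NCD 1 the WT share was 65.6% (21 genes), where 7166 of the 14340 tested genes passed, and without WT_HFD 2 it was 46.9% against 46.3%. The share of P450 genes was below that of all tested genes under the other alternatives in WT and under every alternative run in KO. The filter bears on these counts, because 3 of the 32 genes (Cyp1a2, Cyp2a5 and Cyp4f15) reached 1 FPKM on NCD alone and 1 (Cyp2u1) on HFD alone. Without such genes 11 of 28 P450 genes passed in WT (39.3%, against 49.0% of all genes treated alike) and 13 in KO (46.4%, against 60.2%). These 28 still hold Cyp2a12, Cyp2c29, Cyp2c50, Cyp2d10, Cyp2d26, Cyp2d9, Cyp2f2, Cyp3a11 and Cyp3a25. Each reached 1 FPKM in at least 3 NCD libraries but only 1 or 2 HFD libraries, and so passed the filter through NCD. Among the 16 P450 genes with 1 FPKM in at least 3 libraries of each diet, 10 passed in WT (62.5%, against 49.7%) and 11 in KO (68.8%, against 61.1%). The median log2(FPKM + 1) difference over these 16 was -0.23 in WT and -0.11 in KO, against -0.01 and 0.05 over all genes treated alike, and over all 32 it was -0.62 and -0.49, against -0.03 and 0.04 over all tested genes. A total of 11 genes passed in both genotypes with the same sign, 2 in WT alone (Cyp2a5, Cyp4v3), 3 in KO alone (Cyp20a1, Cyp2d9, Cyp4f17) and 16 in neither. Median centring moved the median of all tested genes in KO by -0.15 on the log2 scale and turned the split of all calls from 4967 higher and 3763 lower to 3824 and 5188. The P450 split in KO was then 2 higher and 11 lower. Without the 3 NCD libraries highest in ciliated-cell transcripts (WT_NCD 2, WT_NCD 4 and KO_NCD 2), which leaves 1 WT_NCD library, the count was 5 in WT (15.6%, against 27.0% of all tested genes) and 18 in KO (56.2%, against 57.8%).

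On NCD, a block of P450 genes that are abundant in liver ranked the libraries as the hepatocyte transcripts did. From high to low, the summed hepatocyte markers ranked the NCD libraries as WT_NCD 2, KO_NCD 3, WT_NCD 4, WT_NCD 1, KO_NCD 4 and KO_NCD 2. Cyp1a2, Cyp2a12, Cyp2a5, Cyp2c29, Cyp2c50, Cyp2d10, Cyp2d26, Cyp2j5 and Cyp3a25 ranked them in exactly that order, which is 9 of the 32 tested P450 genes (28.1%) against 85 of 14340 tested genes (0.593%). With untested genes included it was 14 of 87 (16.1%), and the share over the whole table was not computed. Except for Cyp2j5, which reached 1 FPKM in 2 NCD libraries and 1 HFD library, these 9 genes passed the filter through NCD. None of the 16 P450 genes with 1 FPKM in at least 3 libraries of each diet was among them. The 9 were thus tested through libraries in which they were high, and the share over genes that passed the filter alike was not computed. On HFD the hepatocyte order was WT_HFD 2, WT_HFD 4, KO_HFD 5, KO_HFD 8, KO_HFD 3 and WT_HFD 1, and 4 of the 32 followed it (12.5%, against 0.544% of tested genes), namely Cyp2c50, Cyp2d26, Cyp2d9 and Cyp2j5. The order held on both diets for 3 of the 32 (9.38%, against 0.258%). WT_NCD 2 was the highest of the 12 libraries for 14 of the 32 (43.8%), against 8.49% of tested genes. Cyp2c29, a hepatic epoxygenase, stood at 0.75, 8.09 and 1.97 FPKM in WT_NCD, and per 100 FPKM of albumin (Alb) it held to 0.92 to 1.42 FPKM over the 6 NCD libraries. Cyp2d10 held to 1.21 to 1.71 and Cyp3a25 to 0.92 to 1.49 on the same scale. Not all of the 9 genes held so closely, and Cyp2d26 spanned 1.44 to 5.60. Over the 6 HFD libraries, where levels were low, the ratios spread more widely, from 0 to 1.51 for Cyp2c29, 0.38 to 6.16 for Cyp2d10 and 0 to 1.05 for Cyp3a25. Cyp3a11, the main Cyp3a enzyme of mouse liver, spanned 0.82 to 8.21, with 40.6 FPKM in WT_NCD 2 and 17.4 in KO_NCD 3 but 0.47 to 7.29 FPKM in the other 4 NCD libraries. Its diet difference passed in neither genotype. The part of these hepatocyte transcripts in the P450 levels was not tested.

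From high to low, Cyp2e1 ranked the NCD libraries as KO_NCD 3, WT_NCD 2, WT_NCD 4, WT_NCD 1, KO_NCD 2 and KO_NCD 4. This is the hepatocyte order apart from the first 2 libraries and the last 2, which were nearly tied at 1244.44 and 1244.39 FPKM. Per 100 FPKM of Alb, Cyp2e1 spanned 366 to 6044 FPKM over the NCD libraries. WT_HFD 1, with Alb at 0.68 FPKM, and WT_HFD 2, with Alb at 105 FPKM, had 105 and 106 FPKM of Cyp2e1. KO_NCD 2 had the lowest hepatocyte sum of the NCD libraries, 42.4 FPKM, and 1244 FPKM of Cyp2e1. Only 1 of 7 hepatocyte markers passed for diet in WT and none in KO by limma at adjusted p 0.05, with 4 and 2 of them at an unadjusted p under 0.05, and their median differences were -2.33 in both genotypes. Without the 2 libraries highest in hepatocyte markers the diet count was 11 in WT (34.4%, against 43.5% of all tested genes) and 13 in KO (40.6%, against 55.6%). With the hepatocyte sum as a covariate it was 10 (31.2%, against 38%) and 11 (34.4%, against 52.6%). In the main fit 50.8% of all tested genes passed in WT and 60.9% in KO, so calls were fewer over all genes as well. Both calls of Cyp2e1 and of Cyp2f2 passed in both of these fits, while the call of Cyp2a5 in WT, that of Cyp2d9 in KO and both calls of Cyp4f15 were lost in both. The adjusted p was 0.0688 and 0.389 for Cyp2a5, 0.0662 and 0.286 for Cyp2d9, 0.192 and 0.229 for Cyp4f15 in WT, and 0.0668 and 0.21 for Cyp4f15 in KO, all by limma. With the covariate, the calls of Cyp4v3 in WT and Cyp2r1 in KO, which rose on HFD, were lost as well. The mean hepatocyte sum was 505 FPKM in WT_NCD and 100 in WT_HFD, and 209 in KO_NCD and 19.0 in KO_HFD. The covariate thus moved with diet, and the fits cannot tell them apart. The part of hepatocyte transcripts in these calls was not tested.

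**Figure D4:**
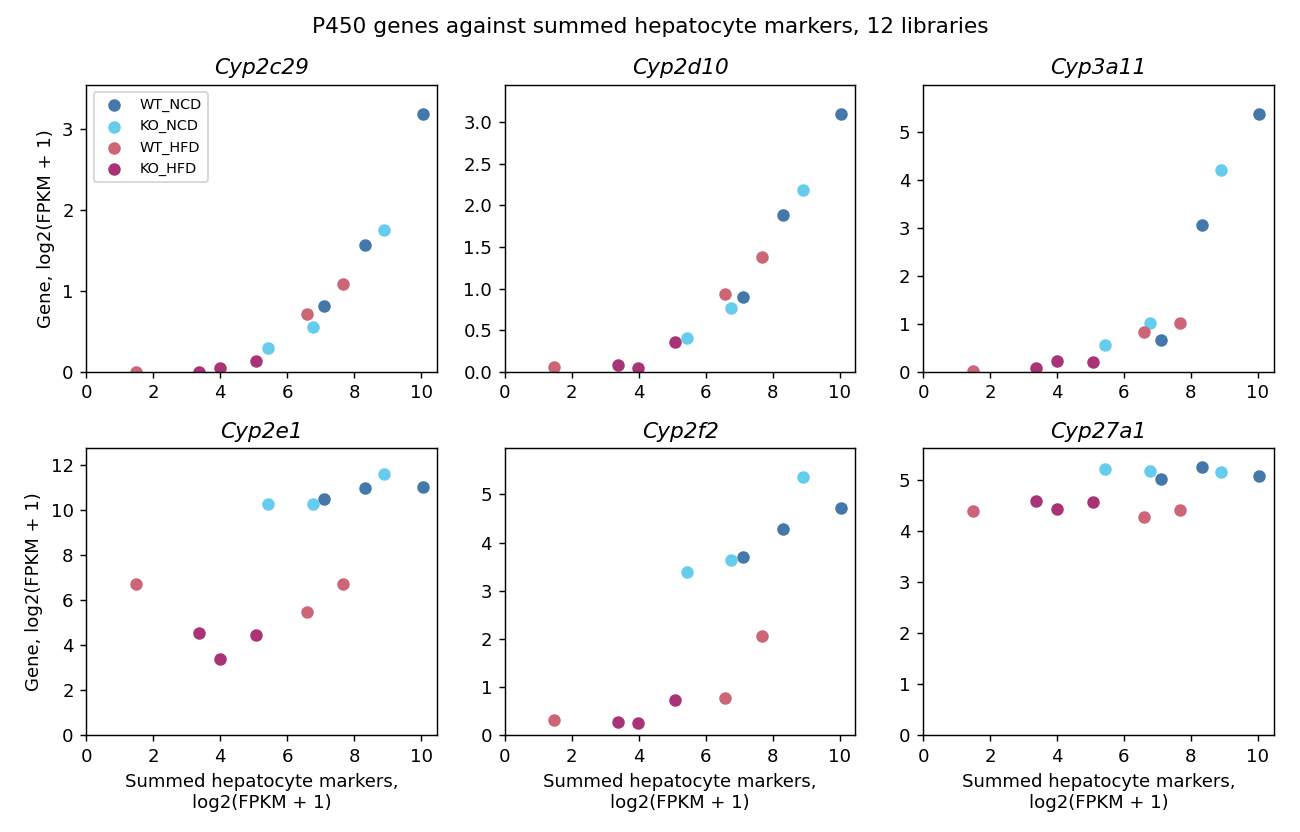
Level of 6 P450 genes (vertical axes) against the summed level of 7 hepatocyte markers (horizontal axes) in the 12 libraries, both as log2(FPKM + 1). Cyp2c29 and Cyp2d10 rise with the marker sum across groups, and Cyp2e1 and Cyp27a1 are higher in every NCD than in every HFD library. The part of hepatocyte transcripts in these levels was not tested.

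Between genotypes, no P450 gene passed on either diet. On NCD, Cyp2e1 overlapped between WT and KO (-0.10, SE 0.46, 95% interval -1.10 to 0.91, adjusted p = 0.99), and 0.0488% of all tested genes passed. The sign of this difference turned without WT_NCD 2 (0.0068), without KO_NCD 2 or KO_NCD 4 (0.12) and without the 3 NCD libraries highest in ciliated-cell transcripts (0.47). On HFD, 0.802% of all tested genes passed. Cyp2e1 was lower in KO_HFD than in WT_HFD in all 3 libraries against all 3, with a ratio of means of 4.88 and the most negative difference of all 14340 tested genes. The difference of -2.20 (SE 0.46, 95% interval -3.20 to -1.19) missed the threshold at adjusted p = 0.0584. It passed without KO_NCD 3 (adjusted p = 0.0343) and without WT_HFD 4 (adjusted p = 0.0258), and over all alternatives its adjusted p ranged from 0.0258 to 0.219, all by limma. The summed adipocyte markers were also lower in KO_HFD, and 6 of these 8 markers had an unadjusted p under 0.05 in this comparison. Their part in the difference was not tested. Per 100 FPKM of Adipoq, Cyp2e1 spanned 5.18 to 10.2 FPKM in WT_HFD and 2.49 to 3.39 in KO_HFD, and KO_HFD lay below WT_HFD with no overlap for each of the 8 markers, Cfd included.

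Cyp1b1 was next in KO against WT on HFD, at 26.1 ± 3.76 against 19.4 ± 1.86 FPKM (0.41, SE 0.10, adjusted p = 0.0666), and Cyp27a1 had an unadjusted p of 0.0442 (adjusted p = 0.194 by limma). In the same comparison all 8 macrophage markers were higher in KO, with a median difference of 0.58 and an unadjusted p under 0.05 for each (1 passed after adjustment), and 5 of 7 mast cell markers were higher and passed. Their part in the difference of Cyp1b1 was not tested. Without WT_HFD 4 the count of P450 genes that passed was 2, Cyp1b1 and Cyp2e1, and it was 1, Cyp1b1, without KO_HFD 5. Calls over all 14340 tested genes rose in these fits too, from 115 to 953 without WT_HFD 4 and to 273 without KO_HFD 5. On NCD, Cyp20a1 alone had an unadjusted p under 0.05, at 12.4 ± 0.33 FPKM in KO against 14.3 ± 0.60 in WT (-0.19, adjusted p = 0.437 by limma). For the difference of diet effects, KO minus WT, 0.272% of all tested genes passed and no P450 gene did. The smallest adjusted p-values in limma were 0.148 for Cyp20a1 (0.26, SE 0.07), 0.162 for Cyp2e1 (-2.10, SE 0.64, 95% interval -3.52 to -0.68) and 0.188 for Cyp1b1 (0.42, SE 0.14), the 3 genes with an unadjusted p under 0.05. The median over the 32 genes of KO against WT was -0.20 on NCD and -0.21 on HFD, against -0.05 and 0.03 over all tested genes. The 7 hepatocyte markers, of which none passed, had medians of -1.243 and -1.125. The most negative P450 genes on NCD were Cyp3a11 (-1.11), Cyp2c29 (-0.99), Cyp2c50 (-0.95) and Cyp2a5 (-0.90), each highest in WT_NCD 2. The part of hepatocyte transcripts in the P450 medians was not tested.

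The microRNA absent from the KO animals is shown with its seed, bases 2 to 8, in capitals, because matches to the seed mark its candidate targets. It is encoded at chr11:96317186-96317208 (plus strand, RefSeq GRCm38.p6).
miR-10a-5p: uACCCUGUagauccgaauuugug
A match to the seed (ACAGGGT) was in the longest annotated 3′ UTR of 3 of the 32 tested P450 genes (9.375%), against 1867 of 12528 tested genes with a 3′ UTR (14.9%). Each gene holds 2 matches, shown in capitals with their surroundings.
Cyp20a1 first: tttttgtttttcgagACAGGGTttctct
Cyp20a1 second: gcagtgggttttgagACAGGGTtttttc
Cyp2u1 first: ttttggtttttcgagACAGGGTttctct
Cyp2u1 second: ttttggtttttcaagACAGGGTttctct
Cyp4f17 first: ttttttttttttgagACAGGGTctcagc
Cyp4f17 second: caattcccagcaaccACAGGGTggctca
None of these genes passed in KO against WT. On NCD the KO minus WT difference on the log2(FPKM + 1) scale was -0.19 for Cyp20a1, -0.07 for Cyp2u1 and 0.23 for Cyp4f17. On HFD it was 0.07, -0.02 and -0.30. Cyp2e1 held no match.

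The 55 untested P450 genes were low, and 41 of them stayed under 1 FPKM in every library. All 4 steroid hormone synthesis genes and all 3 retinoic acid hydroxylases were among the 55. Cyp11a1, the side-chain cleavage enzyme that opens steroid synthesis, reached 1.23 FPKM at most, and Cyp19a1, the aromatase, 0.05 FPKM. Cyp26b1, which breaks down retinoic acid, reached 0.75 FPKM. The other 14 of the 55, Cyp11a1 among them, reached 1 FPKM in 1 or 2 libraries. Cyp2c70 was the highest of these at 3.96 FPKM, and Cyp8b1, of bile acid synthesis, reached 2.63 FPKM, both in WT_NCD 2. WT_NCD 2 was the highest library for 25 of the 55 (45.5%), against 8.49% of tested genes. The share over all untested genes was not computed, and WT_NCD 2 also had the most genes at 1 FPKM, 13667. Chromosome 19 holds 17 of the 87 genes, mostly Cyp2c, of which 3 were tested, and chromosome 7 holds 13, of which 6 were tested. Cyp1a1, the textbook Ah receptor target, stayed at 0.28 FPKM or less.

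Genes that serve the P450 enzymes or act on the same substrates are given beside the share of all tested genes that passed for diet, 50.8% in WT and 60.9% in KO. Of 10 electron donor and cofactor genes, 9 passed in each genotype (90%), 4 higher and 5 lower. P450 oxidoreductase (Por) fell from 184 ± 9.85 to 71.5 ± 8.46 FPKM in WT (-1.36, adjusted p = 6.73e-06) and from 189 ± 28.4 to 72.0 ± 5.28 FPKM in KO (-1.37, adjusted p = 2.86e-06). Cytochrome b5 (Cyb5a) fell by 1.04 and 1.37 and the mitochondrial ferredoxin Fdx1 by 1.10 and 1.65 on the log2(FPKM + 1) scale. Of 12 genes of haem synthesis and breakdown, 7 passed in WT (58.3%, 3 higher and 4 lower) and 11 in KO (91.7%, 5 higher and 6 lower). Haem oxygenase (Hmox1), which degrades haem, rose by 2.09 and 2.88, and Alad, of haem synthesis, fell by 1.41 and 1.57. Of 18 tested nuclear receptors and other regulators of P450 genes, 13 passed in WT (72.2%, 2 higher and 11 lower) and 11 in KO (61.1%, 2 higher and 9 lower). Among them the adipocyte and liver factor Cebpa fell by 0.93 and 1.21.

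Of 15 tested eicosanoid enzymes, 8 passed in WT (53.3%, against 50.8% of all tested genes, 5 higher and 3 lower) and 9 in KO (60%, against 60.9%, 7 higher and 2 lower), so their share was near that of all genes. Thromboxane synthase (Tbxas1), a P450 enzyme by structure whose symbol lies outside the Cyp names, rose from 4.27 ± 0.34 to 30.1 ± 6.45 FPKM in WT and from 3.51 ± 1.07 to 47.8 ± 7.99 FPKM in KO. Prostaglandin D synthase (Hpgds) rose by 3.49 and 4.40. The macrophage markers rose in the same libraries, and their part was not tested. Of 19 tested conjugation enzymes, 15 passed in each genotype (78.9%), all 15 lower in WT and 14 lower and 1 higher in KO, with Gsta3 falling by 2.90 and 3.37. Of 8 tested flavin monooxygenases and other microsomal oxidases, 7 passed in WT (87.5%, 1 higher and 6 lower) and 6 in KO (75%, 1 higher and 5 lower), and Fmo5 fell by 1.38 and 1.34. Of 12 tested genes of ethanol, acetone and aldehyde oxidation, 8 passed in WT (66.7%, 3 higher and 5 lower) and 10 in KO (83.3%, 5 higher and 5 lower), and Aldh1a1 fell by 1.43 and 1.42. Of 13 tested steroid handling genes, 7 passed in WT (53.8%, against 50.8% of all tested genes, 3 higher and 4 lower) and 6 in KO (46.2%, against 60.9%, 2 higher and 4 lower), and Hsd11b1, which activates glucocorticoids, fell by 2.0 and 2.42. Of 7 tested retinoid handling genes, 5 passed in WT (71.4%, 3 higher and 2 lower) and 6 in KO (85.7%, 4 higher and 2 lower), and the retinol carrier Rbp4 fell by 1.33 and 2.37. In KO against WT on HFD, 3 genes of these lists passed, Hpgds (0.72, adjusted p = 0.0316), Mgst2 (-0.91, adjusted p = 0.0401) and Rbp4 (-1.11, adjusted p = 0.0476).

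**Figure D5:**
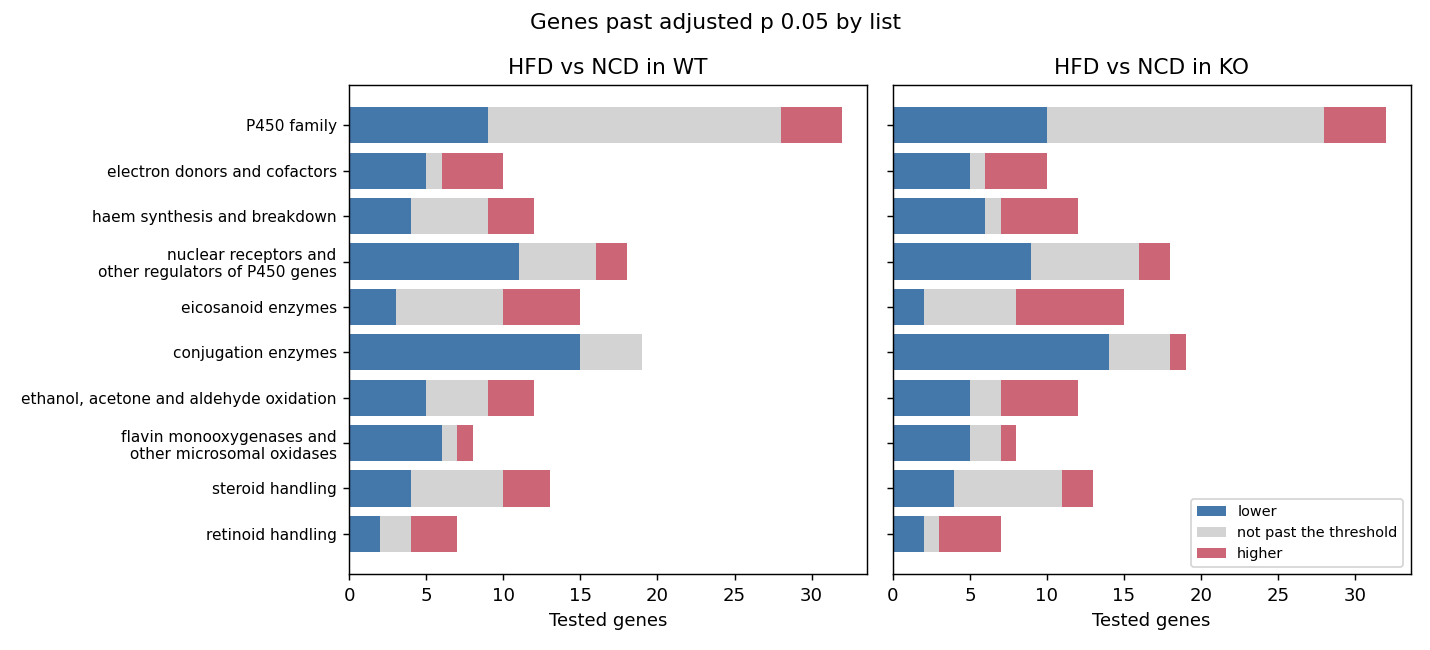
Number of tested genes that were lower (left part of each bar), not past adjusted p 0.05 (middle) or higher (right part) on HFD than on NCD, for the P450 family and 9 lists of related genes, in WT (left) and KO (right). Of the 19 conjugation enzymes, 15 were lower in WT and 14 in KO, and the P450 family had 19 of 32 genes in WT and 18 of 32 in KO that did not pass.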

How the data were processed

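The deposited FPKM values of 12 libraries were used as the authors gave them. Per the submitters' processing notes, the reads went through HISAT2 2.1.0 and StringTie 1.3.4d on mm10, with bcl2fastq 2.20.0, Trimmomatic and DESeq2 also named, and per the labels the libraries were stranded poly(A) preparations. Columns were tied to groups by their names. Symbols came from the RefSeq table of GRCm38.p6, which named 30196 of 30268 rows. The 87 P450 genes and all lists were chosen with earlier results of these data known. Genes with 1 FPKM in at least 3 libraries (14340) were fitted in limma 3.58.1 (R 4.3.3) on log2(FPKM + 1) with 4 group means and empirical Bayes moderation with a trend, and p-values were adjusted by Benjamini-Hochberg over all 14340. The scale understates changes of low genes. The procedure was tested on simulated data. Values in every library were printed for Cyp2e1, for members past 0.05 that changed by at least 1 on this scale with diet or that passed between genotypes, and for the 3 highest members. Of each list, the genes named are among the 4 with the lowest adjusted p, apart from those that passed between genotypes and from Ahr and Ephx2, which were added for their link to Cyp1b1 and the epoxygenases. Depth is unknown, so no counting interval is given. Alternatives covered the pseudocount (0.1 FPKM), filters, scaling, the variance model and leaving out libraries. The 2 alternatives on hepatocyte markers and the counts over genes that passed the filter on each diet were chosen after seeing the data.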

Additional observations from a re-analysis of the deposited data

How the results depend on the processing

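Of 27 diet calls on single P450 genes, 13 passed under every alternative run, among them both calls each of Cyp2e1, Cyp2f2, Cyp1b1, Cyp27a1 and Cyp2d22, and 14 were lost under at least 1. The calls of Cyp2a5 and Cyp4v3 in WT were lost under 15 of 22 alternatives, and Cyp4f15 under 15 of 21 in WT and 12 of 21 in KO. The count of P450 genes called for diet in WT, 13, ranged from 10 to 21 when 1 library was left out, with 21 without WT_NCD 1, and was 5 without the 3 ciliated NCD libraries, where the lone WT_NCD library is assumed to vary like the other groups. The count in KO, 14, ranged from 11 to 15 when 1 library was left out and was 18 without the 3 ciliated NCD libraries. The count for KO against WT on NCD and that for the difference of diet effects were 0 under every alternative run. The count for KO against WT on HFD, 0, was 1 under quantile normalization and 0 to 2 when 1 library was left out. Over all tested genes this count was 115, with 113 under quantile normalization and 17 to 953 when 1 library was left out. Under quantile normalization Cyp2e1 passed there at adjusted p = 0.0458. The difference of Cyp2e1 between genotypes on NCD, -0.10, turned to 0.0068 without WT_NCD 2, 0.12 without KO_NCD 2 or KO_NCD 4 and 0.47 without the 3 ciliated NCD libraries, and ranged from -0.54 to 0.12 when 1 library was left out. The cause of these shifts was not tested. No paired analysis was possible because the columns carry numbers that are not the replicate numbers of the labels. Depth is unknown, and 3 libraries a group limit what could be called.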
